A study of Mus musculus with 3 samples.

Results

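The genes described here are 10 that encode regulators of stem cell quiescence: Foxo1, Foxo3, Foxo4, Egr1, Egr2, Egr3, Txnip, Klf4, Klf6 and Btg2. They were chosen by name, with earlier results of these data known. All 10 were found among the 21887 protein-coding genes that the RefSeq annotation of the mm10 build (GRCm38.p6) places on the autosomes, X and Y. Every peak of the retinoid X receptor RXRA in one of these genes or within 50 kb of it was collected from 3 CUT&RUN libraries, and peaks at a gene end, inside a gene and beyond it were kept apart. In CUT&RUN, a nuclease tethered to the antibody cuts DNA around the bound protein, and the pieces set free are sequenced.

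There was 1 HSC library, made from 10000 haematopoietic stem cells (HSC) that were sorted from bone marrow by the surface markers Lin-cKit+Sca1+CD48-CD150+. For multipotent progenitors (MPP), with the markers Lin-cKit+Sca1+CD150-, there were 2 libraries of 50000 cells, rep 1 and rep 2. The donors were C57BL/6 mice of about 10 months, pooled over several animals. Every library was made after 1 h with 1 mM bexarotene, an RXR agonist. The peak names of HSC and MPP rep 1 carry a common tag that those of MPP rep 2 lack, and the labels do not say what it stands for. The genotype label of every library reads VavCre+; WT, where Vav directs the Cre recombinase to blood cells, and the protocol names Rxrabfl/fl (WT) mice. Both call the animals wild type, and whether Cre and floxed alleles were carried together is not settled by the labels. No library without the drug or with a control antibody was used here, and the peak lists carry no expression level against which the sorted identities could be checked. With 1 HSC library, differences between HSC and MPP have no replicate check and no p-value is given. The labels do not say whether the MPP libraries came from separate pools of mice.

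Most adult blood stem cells rest outside the cell cycle, and several transcription factors hold them there. FOXO proteins are kept out of the nucleus when growth factor signalling activates AKT. In resting cells they enter the nucleus and switch on genes for cell cycle arrest and for defence against oxidative stress. EGR1 and its relatives EGR2 and EGR3 are zinc finger factors of the immediate-early class, which respond within minutes to signals, and in the mouse EGR1 is known to keep stem cells quiescent and in their niche. TXNIP inhibits thioredoxin, KLF4 and KLF6 are Krüppel-like zinc finger factors, and BTG2 is an antiproliferative protein that works with the mRNA deadenylation machinery. RXRA binds DNA with partner receptors, usually at repeats of a short hexamer motif.

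The HSC list held 4047 peaks, the MPP rep 1 list 29848 and the MPP rep 2 list 19570. The lowest background that the peak values give was 0.604 fragments for HSC, 2.87 for MPP rep 1 and 1.08 for MPP rep 2. Depth by this measure was 4.75 (rep 1) and 1.79 (rep 2) times that of HSC. The lowest pileup called a peak, a pileup being the number of fragments over the summit, was 5 in HSC, 10 in MPP rep 1 and 6 in MPP rep 2. Fold enrichment is the authors' value for each peak, the pileup over the local background, and is used here to rank peaks within a list. Intervals on pileups are 95% exact Poisson intervals and cover counting error only.

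RXRA lay near all 10 genes in the progenitors and near 3 of them in the stem cells. In HSC, Egr1, Egr3 and Btg2 had a peak in the gene or within 50 kb, against 33.9% of all protein-coding genes. All 10 genes had one in MPP rep 1 and all 10 in MPP rep 2, while 78.7% and 72.7% of protein-coding genes did, and 70.4% did in both. A peak within 1 kb of a gene end was present at 1 of the 10 in HSC, Egr1, against 8.18% of all protein-coding genes. In MPP rep 1 it was 3 of 10, Foxo1, Foxo3 and Egr3, against 41.2%, and in MPP rep 2 it was 4 of 10, Foxo1, Egr1, Egr3 and Klf6, against 35.9%. The counts at gene ends thus lie near or below those of genes at large. Both MPP libraries marked Foxo1 and Egr3, against 28.9%, and HSC marked neither, a pattern of 23.1% of protein-coding genes. None of the 10 was marked at an end in all 3 libraries, as 5.8% of protein-coding genes were, and 5 were marked in none, Foxo4, Egr2, Txnip, Klf4 and Btg2, against 51.5%. With every list held to its 4047 peaks of highest fold, the gene-end counts were 1 in HSC, 1 in MPP rep 1 and 0 in MPP rep 2, and the counts within 50 kb were 3, 5 and 5. At that length 8.18%, 8.83% and 10.1% of all protein-coding genes were marked at an end, and 33.9%, 36.5% and 36.5% had a peak within 50 kb.

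**Figure D1:**
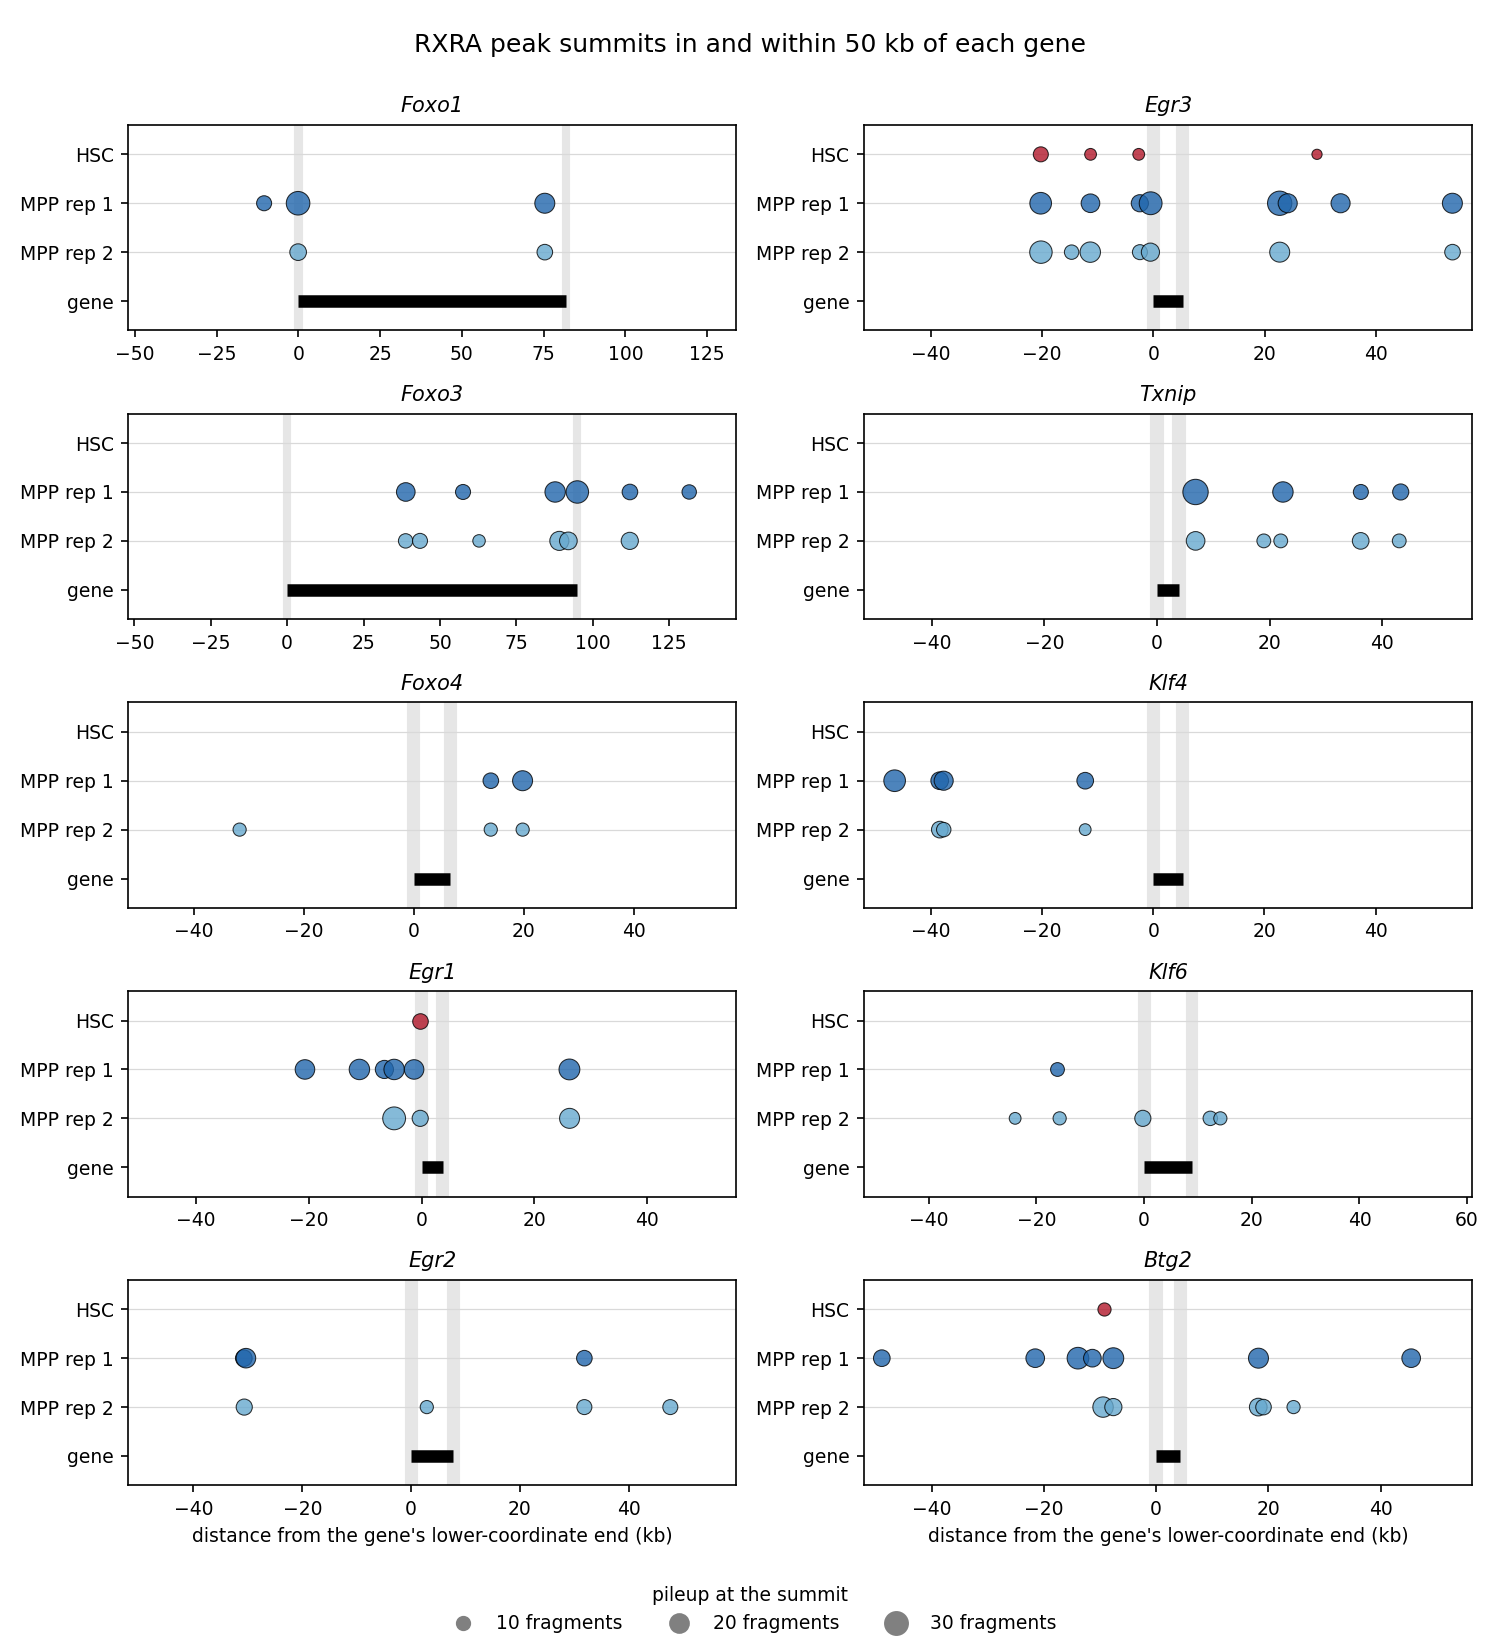
Summits of RXRA peaks around each of the 10 genes, by distance in kb from the end of the gene with the lower coordinate. Rows are the HSC library and MPP reps 1 and 2, circle area is proportional to the pileup at the summit, the black bar is the gene, and grey bands mark 1 kb either side of each gene end. HSC peaks appear at Egr1, Egr3 and Btg2, and MPP peaks appear around every gene.

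The peaks numbered 6 in HSC, 44 in MPP rep 1 and 43 in MPP rep 2. The median per gene was 0, 4 and 4.5 for the 10, and 0, 3 and 2 for all protein-coding genes. The HSC peaks comprised 1 at a gene end and 5 beyond the gene. Of the MPP rep 1 peaks, 3 lay at a gene end, 4 inside the gene and 37 beyond it, and of the MPP rep 2 peaks 4, 7 and 32. Merged across libraries they formed 62 sites, of which 5 lay at a gene end, 9 inside a gene and 48 beyond it. The peak nearest to the outer limit lay 48579 bp from Btg2, and the nearest one left out lay 51093 bp from Foxo1. The fold ran between 3.84 and 7.82 in HSC, between 3.06 and 7.72 in MPP rep 1 and between 3.69 and 9.28 in MPP rep 2. The top 10% of a list by fold held 1 of the 6 HSC peaks, 4 of the 44 MPP rep 1 peaks and 3 of the 43 MPP rep 2 peaks, so as a set they did not rank high.

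Only 3 of the 62 sites were called in all 3 libraries, and all 3 lay beside Egr3. A further 22 were called in both MPP libraries but lacked an HSC call, 18 in MPP rep 1 alone and 16 in MPP rep 2 alone. Merged sites were not counted over the whole lists, so these patterns have no share of all sites beside them. The HSC list is also by far the shortest. HSC shared 1 site at Egr1 and 1 at Btg2 with MPP rep 2, and 1 HSC site, inside Bin3 beyond Egr3, was called in neither MPP library. Of the MPP rep 1 peaks near the 10 genes, 26 of 44 overlapped a rep 2 peak by at least 1 bp (59.1%, 95% exact binomial interval 43.2 to 73.7), against 44.9% of all rep 1 peaks. Of the MPP rep 2 peaks, 25 of 43 overlapped a rep 1 peak (58.1%, 42.1 to 73.0), against 68.1% of all rep 2 peaks. Both intervals include the share of the whole list. Of the 6 HSC peaks, 3 overlapped a rep 1 peak, against 70.8% of all HSC peaks, and 5 a rep 2 peak, against 76.1%. Either MPP library covered 5 of them (83.3%, 35.9 to 99.6), against 85.2%, and both covered 3, against 61.6%. In turn 3 of the 44 rep 1 peaks and 5 of the 43 rep 2 peaks overlapped an HSC peak, against 9.75% and 15.9% of their lists.

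**Figure D2:**
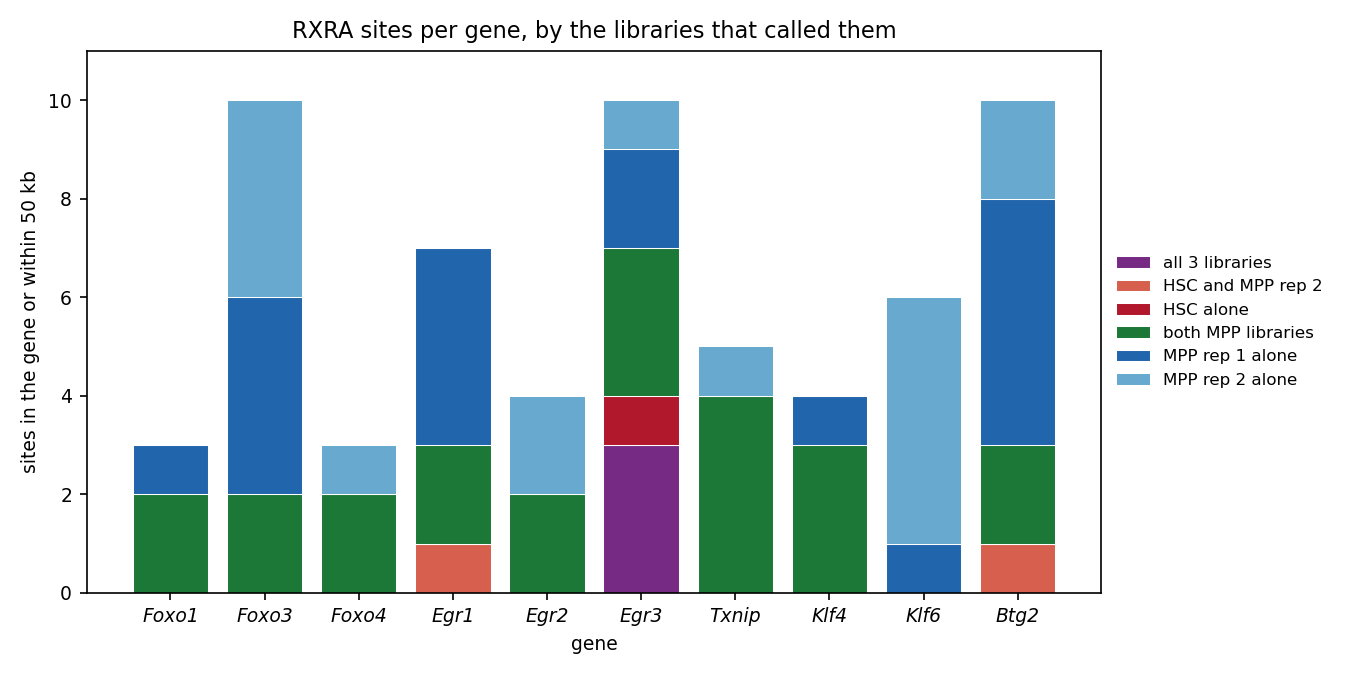
Number of RXRA sites in each gene or within 50 kb of it, stacked by the libraries that called them. Sites called in all 3 libraries appear at Egr3 alone among the 10 genes, and Klf6 has no site called in both MPP libraries.

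Judged by the lower of its ranks in the MPP lists, the leading shared RXRA site among the FOXO genes was that of Foxo1. It lay directly at the start of transcription in both MPP libraries. In rep 2 taken alone, a shared site before Foxo3 ranked higher, in the top 18.7%. Foxo1 lies on chromosome 3 from 52268337 to 52350109, on the plus strand. The peak ran from 52268191 to 52268437 in MPP rep 1, with a summit 80 bases before the start, a fold of 6.99 and 32 fragments at the summit (21.9 to 45.2). It ran from 52268175 to 52268461 in MPP rep 2, with a summit 60 bases before the start, a pileup of 16 (9.15 to 26.0) and a fold of 6.59. Both libraries thus place the summit within 80 bases before the gene. The site ranked in the top 6.92% of the rep 1 list and the top 30.0% of the rep 2 list. Scaled to the HSC background, these pileups correspond to 6.73 and 8.93 fragments, above the lowest pileup called in HSC, and no HSC peak was called within 50 kb. A call depends also on the local background, which was 3.72 in rep 1 and 1.58 in rep 2 at this site. Both are above the lowest of their lists, so an HSC call was not assured. The nearest HSC summit lay 528351 bp away. Foxo1 also had an internal site in both MPP libraries, 75.3 kb after the start, with folds of 5.86 and 5.85 and pileups of 23 (14.6 to 34.5) and 14 (7.65 to 23.5). Another site, 10.5 kb before the gene, was called in MPP rep 1 alone with a fold of 3.62.

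Foxo3, the FOXO member most closely tied to stem cell maintenance in the mouse, carried 10 sites against 3 at Foxo1, with 2 of them called in both MPP libraries at each gene. It lies on chromosome 10 from 42181845 to 42276695, on the minus strand. At its start only MPP rep 1 had a peak, from 42276463 to 42276956, with a summit 95 bases before the start, a pileup of 29 (19.4 to 41.6) and a fold of 4.84. MPP rep 2 had no peak at the start, and its closest peak had a summit 2.84 kb after it, with a pileup of 18 (10.7 to 28.4) and a fold of 4.00. That peak lay at an end of another annotated gene, Gm38485. The shared sites of Foxo3 were an internal one 56.0 kb after the start in rep 1 and 56.1 kb in rep 2, with folds of 4.42 and 5.18, and one 17.3 kb before it. The site before the start had a pileup of 14 (7.65 to 23.5) and a fold of 3.86 in MPP rep 1, and a pileup of 17 (9.90 to 27.2) and a fold of 7.41 in MPP rep 2. Near the start the libraries placed internal peaks at different positions, 7.17 kb after it in rep 1 and 5.79 kb after it in rep 2. The nearest HSC summit lay 225210 bp from the gene.

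Foxo4, on chromosome X from 101254261 to 101260873, had no peak in the gene or at its ends in any library. Its 3 sites all lay at ends of neighbouring genes. Il2rg, which encodes the shared gamma chain of several interleukin receptors, had an end peak with folds of 3.88 and 5.02 in MPP reps 1 and 2. Med12, which encodes a Mediator subunit, had one with folds of 6.20 and 5.29 and pileups of 23 (14.6 to 34.5) and 10 (4.80 to 18.4). Snx12, a sorting nexin gene, had one in MPP rep 2 alone, with a fold of 5.29.

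Promoter sequences from RefSeq (GRCm38.p6) show what lay under the start peaks, and were available for 7 of the 10 genes. The 250 bases before the annotated start are printed 5′ to 3′ in the direction of transcription for Foxo1, Foxo3 and Klf6, whose starts carried an MPP peak. An annotated start of Egr2 inside the gene also carried one, in MPP rep 2, and its sequence is described with the others and not printed. Capitals mark matches on either strand to the motifs searched. The RXR hexamer was searched as AGGTCA, then as GGGTCA, as AGTTCA and as GGTTCA, and its direct repeats with spacers of 1 to 5 bases. The other motifs were the GC box GGGCGG, the E-box CACGTG, the cyclic AMP response element TGACGTCA, the FOXO motif GTAAACA and the ETS motif CCGGAAG. The EGR motif, GCGTGGGCG or in its other spelling GCGGGGGCG, and the CArG box completed the search. The second spelling of the EGR motif and the GC box can overlap.
Foxo1, chr3:52268087-52268336, plus strand: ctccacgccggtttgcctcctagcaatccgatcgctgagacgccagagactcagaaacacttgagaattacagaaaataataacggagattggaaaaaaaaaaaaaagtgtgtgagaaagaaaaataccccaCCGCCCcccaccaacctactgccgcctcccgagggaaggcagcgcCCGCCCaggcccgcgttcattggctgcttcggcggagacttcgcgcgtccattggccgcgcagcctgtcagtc
Foxo3, chr10:42276696-42276945, minus strand: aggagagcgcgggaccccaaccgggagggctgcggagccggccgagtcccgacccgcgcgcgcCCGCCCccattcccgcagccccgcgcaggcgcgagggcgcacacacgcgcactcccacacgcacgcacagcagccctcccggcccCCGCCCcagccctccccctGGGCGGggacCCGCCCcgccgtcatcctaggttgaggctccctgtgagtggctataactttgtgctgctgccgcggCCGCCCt
Klf6, chr13:5861239-5861488, plus strand: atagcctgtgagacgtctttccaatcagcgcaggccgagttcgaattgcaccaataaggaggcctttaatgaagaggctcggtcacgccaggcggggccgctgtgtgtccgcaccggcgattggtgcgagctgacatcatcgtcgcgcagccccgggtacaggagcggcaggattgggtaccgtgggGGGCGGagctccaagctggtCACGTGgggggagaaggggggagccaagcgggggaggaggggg

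The windows searched for the RXR hexamer ran from 250 bases before each start to 50 after it, and any of the 4 spellings occurs in 43.7% of all 32851 such windows. Of the windows with a peak, those of Foxo1, Foxo3 and Klf6 held no hexamer, and that of Egr2 held AGTTCA as its complement TGAACT, just after the start at 67537566 and under the peak. Of the genes without a start peak, Btg2 held AGGTCA as its complement TGACCT, and Klf4 and Txnip held none. Of the other annotated starts of Egr2, none of which had a peak, those at 67537869 and 67537870 share a different AGTTCA match, which lies past the end of that peak. Hexamers thus occurred in windows with and without a peak. In the 250 bases before the start Foxo1 held 2 GC boxes and Foxo3 held 5, and 32.7% of windows cut to these bases hold at least 1. Those before the Egr2 start at 67537566, all under the rep 2 peak, held 1 GC box and 1 CArG box. Klf6 held 1 GC box and 1 E-box, the E-box 43 bases before the start, and 6.02% of the cut windows hold an E-box. Klf4 and the Egr2 start at 67535499, both without a peak, held an E-box as well. GC boxes also stood before starts without a peak, 3 in Btg2, 4 in Klf4, 4 at that Egr2 start and 1 in Txnip. Of the other motifs, GTAAACA stood before Txnip, the EGR motif as its complement CGCCCCCGC before Klf4, and TGACGTCA before Btg2, all without a peak. Another CArG box stood before the Egr2 starts at 67537869, 67537870 and 67537930, also without a peak. Cut windows hold these motifs in 3.17% (FOXO), 3.06% (EGR), 1.55% (cyclic AMP response element) and 1.47% (CArG box). The ETS motif was not found in the start windows of the 7 genes. The MPP rep 1 peak covered 146 of the 250 Foxo1 bases and the rep 2 peak 162, the rep 1 peak covered all 250 Foxo3 bases, and the rep 2 peak covered 226 of the Klf6 bases and all 250 before the Egr2 start. Over the 300-base start windows of these 7 genes HSC had no peak, MPP rep 1 covered Foxo1 and Foxo3, and MPP rep 2 covered Foxo1, Egr2 and Klf6. A peak lay over the start window of 5.67%, 26.6% and 25.1% of the 27025 genes in the promoter table in HSC and MPP reps 1 and 2. No direct repeat of hexamers was found in the start windows of the 7 genes. A match or its absence describes these letters only.

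Egr1 was the 1 gene of the 10 with an HSC peak at a gene end. It lies on chromosome 18 from 34861207 to 34864956. The HSC peak ran from 34860825 to 34861097, with its summit 286 bp below the lower end of the gene, a pileup of 14 (7.65 to 23.5) and a fold of 5.48. The MPP rep 2 peak ran from 34860888 to 34861169, with its summit 231 bp below the end, a pileup of 15 (8.40 to 24.7) and a fold of 4.13, and overlapped the HSC peak by 210 bp. Rep 2 was the deeper library, so these pileups are not comparable as they stand. Scaled to the HSC background, the rep 2 pileup corresponds to 8.37 fragments, within the HSC interval. MPP rep 1 had no peak there: its closest peak ended 1111 bp from the gene, 111 bp outside the 1 kb window and 728 bp from the HSC peak, with a pileup of 22 (13.8 to 33.3) and a fold of 4.09. A gene-end window of 2 kb takes that peak in, and Egr1 is then marked in all 3 libraries. The HSC peak stood at the middle of its list, in the top 51.1% by fold, and the rep 2 peak in the top 91.7%. A gene-end peak in HSC and MPP rep 2 but not in rep 1 was present at 1.75% of protein-coding genes.

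Both MPP libraries also called 2 sites beyond Egr1 that HSC did not. The first, 4.86 kb below the gene, had a pileup of 24 (15.4 to 35.7) and a fold of 4.63 in MPP rep 1, and a pileup of 30 (20.2 to 42.8) and a fold of 7.67 in MPP rep 2. The second, from 34887288 to 34887770, lay 22.5 kb above the gene, with folds of 5.80 and 8.0 and pileups of 25 (16.2 to 36.9) and 23 (14.6 to 34.5). In the rep 2 list these stood in the top 16.3% and the top 13.0%, well above the rep 2 peak at the gene end. A further 4 sites, among them 1 at an end of Reep2, were called in MPP rep 1 alone.

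Egr3 had the most peaks of the 10 genes in each library, and the only sites of the 10 called in all 3 libraries. It lies on chromosome 14 from 70077317 to 70082613. HSC had 4 peaks within 50 kb, MPP rep 1 had 8 and MPP rep 2 had 7. At least as many were present for 0.64%, 11.2% and 5.91% of protein-coding genes. The strongest shared site lay 20.2 kb below the gene, inside Pebp4 and the lncRNA gene Gm33524. In HSC it ran from 70056953 to 70057264 with a pileup of 13 (6.92 to 22.2) and a fold of 7.82, in the top 7.91% of the list. In MPP rep 1 its fold was 5.33 and its pileup 27 (17.8 to 39.3), and in MPP rep 2 the fold was 9.28 and the pileup 29 (19.4 to 41.6). Its HSC summit lay 26 bp from that of rep 1 and 20 bp from that of rep 2.

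The second shared site lay 11.3 kb below Egr3, with pileups of 8 (3.45 to 15.8) in HSC, 20 (12.2 to 30.9) in MPP rep 1 and 24 (15.4 to 35.7) in MPP rep 2. The third lay 2.4 kb below the gene, and its HSC peak, with a pileup of 8 (3.45 to 15.8) and a fold of 3.84, was among the weakest of its list, in the top 96.7%. It overlapped the rep 1 peak by 9 bp and the rep 2 peak over all of its 337 bp. At the lower end of the gene itself both MPP libraries had a peak and HSC had none. That peak ran from 70076716 to 70077012 in MPP rep 1, with a pileup of 30 (20.2 to 42.8) and a fold of 5.48, and from 70076708 to 70077016 in rep 2, with a pileup of 19 (11.4 to 29.7) and a fold of 6.59. Scaled to the HSC background these are 6.31 and 10.6 fragments, above the lowest HSC pileup called. A call depends also on the local background, which was 4.66 in rep 1 and 2.03 in rep 2 here. The lowest of these lists were 2.87 and 1.08, so passing the lowest HSC pileup does not assure an HSC call. The fourth HSC peak, from 70106665 to 70107000 inside Bin3, had a pileup of 6 (2.20 to 13.1) and a fold of 4.32, and its nearest MPP peaks lay 3889 bp away in rep 1 and 6405 bp away in rep 2.

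**Figure D3:**
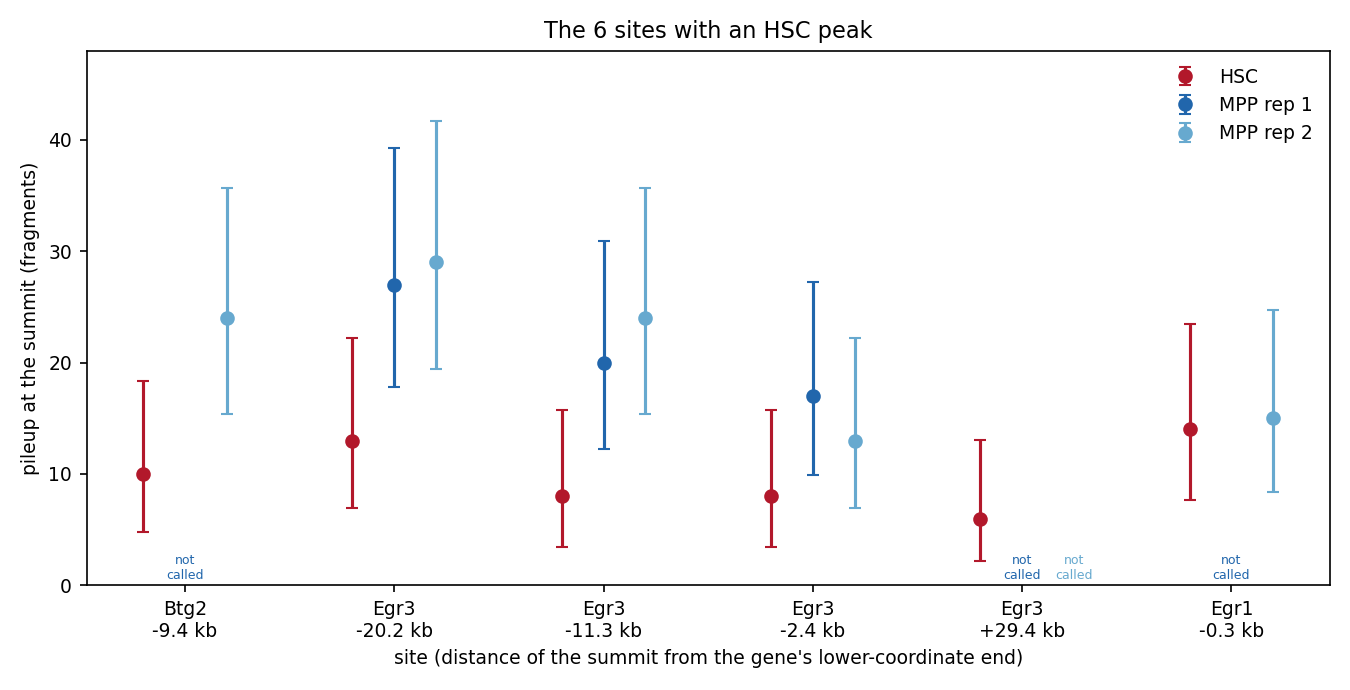
Pileup at the summit, in fragments, for the 6 sites with an HSC peak near Btg2, Egr3 and Egr1. Points are single libraries and bars are 95% exact Poisson intervals, which cover counting error only. The libraries differ in depth, so heights are not comparable between them. HSC pileups run from 6 to 14.

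Egr2, on chromosome 10 from 67534469 to 67542188, had no peak at its outer ends in any library and no HSC summit within 669956 bp. Its 1 internal peak, in MPP rep 2 alone from 67537224 to 67537583, had a summit 212 bases before an annotated start of Egr2 at 67537566. That peak was weak, with a pileup of 10 (4.80 to 18.4) and a fold of 3.82, in the top 96.4% of its list. Both MPP libraries called 2 sites farther out. One lay 30.4 kb below the gene, at an end of the lncRNA gene Gm40679 and inside the lncRNA gene Gm32255. MPP rep 1 had 2 adjoining peaks there, with folds of 5.69 and 4.30, and MPP rep 2 had 1 with a fold of 6.88. The other lay 24.1 kb above the gene, with folds of 3.78 and 6.73.

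Txnip had no peak in the gene or at its ends, but a strong one shortly after it. The gene lies on chromosome 3 from 96557957 to 96561857 on the plus strand, inside the lncRNA gene Gm15441, which in mouse liver is known to respond to the RXR partner PPARA. The site ran from 96564674 to 96564980 in MPP rep 1, with a pileup of 37 (26.1 to 51.0) and a fold of 7.72, the highest rep 1 fold among the peaks near the 10 genes. In MPP rep 2 it ran from 96564676 to 96564972, with a pileup of 20 (12.2 to 30.9) and a fold of 8.47. The site thus ranked in the top 4.05% and the top 9.65% of the 2 MPP lists, and lay 2.92 kb after the end of Txnip. Scaled to the HSC background its pileups correspond to 7.78 and 11.2 fragments, above the lowest called HSC pileup of 5. The local background was 3.92 in rep 1 and 1.48 in rep 2, above the lowest of each list, so an HSC call was not assured. HSC had no peak there, and its nearest summit lay 108312 bp from Txnip. The 4 other sites lay in or at the ends of Polr3gl, an RNA polymerase III subunit gene, or at the ends of Ankrd34a and Lix1l.

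Klf4 had only distal sites, all beyond the 3′ end of the gene. It lies on chromosome 4 from 55527137 to 55532475 on the minus strand, and HSC had no summit within 177311 bp. Both MPP libraries called 3 sites, at 12.2, 37.7 and 38.4 kb below the gene. The pair at 37.7 and 38.4 kb had folds of 5.69 and 4.91 in MPP rep 1 and of 5.21 and 6.81 in MPP rep 2, and neither lay in or at the end of another annotated gene. MPP rep 1 alone had a stronger peak 46.5 kb below the gene, with a pileup of 27 (17.8 to 39.3) and a fold of 6.97.

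At Klf6 no MPP rep 1 peak overlapped a rep 2 peak. The gene lies on chromosome 13 from 5861489 to 5870393 on the plus strand. MPP rep 2 had a peak at the start, from 5861161 to 5861464, with a summit 239 bases before it, a pileup of 15 (8.40 to 24.7) and a fold of 6.12. MPP rep 1, the deeper library, had no peak there. Rep 2 had 4 further peaks, with folds of 4.32 to 6.25, and rep 1 had 1, 16.2 kb below the gene, with a pileup of 11 (5.49 to 19.7) and a fold of 3.10. The nearest HSC summit lay 268832 bp away.

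Btg2, on chromosome 1 from 134074865 to 134079155 on the minus strand, had 10 sites, none in the gene or at its ends. Its HSC peak, from 134065377 to 134065725, lay 9.32 kb beyond the 3′ end, with a pileup of 10 (4.80 to 18.4) and a fold of 4.80. MPP rep 2 had a peak over 297 bp of it, with a pileup of 24 (15.4 to 35.7) and a fold of 7.24. MPP rep 1 had none, and its nearest peak lay 1407 bp away. Both MPP libraries called 2 other sites, 7.6 kb beyond the 3′ end, with folds of 4.62 and 5.78, and about 13.9 kb before the start, with folds of 4.54 and 5.94. The site before the start lay inside another annotated gene, Gm32039. The remaining sites were called in 1 MPP library each, 5 in rep 1 and 2 in rep 2.

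A missing HSC call is not a level of 0. Scaled to the HSC background, 14 of the 44 MPP rep 1 pileups near the 10 genes (31.8%) reached the lowest pileup that was called in HSC, against 21.8% over the whole rep 1 list. Of the 43 MPP rep 2 pileups 41 did (95.3%), against 93.0% over its whole list. Reaching that pileup does not mean that HSC would have called a peak, because a call depends also on the local background. HSC called 3 of the sites seen in rep 1 and 5 of those in rep 2. Depth and cell number differ between the libraries together with the cell type, and cannot be told apart from it.

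By the 3 gene-end folds, the genes most alike to Foxo1 were Vwa1, Rbsn and LOC115489489, and those most alike to Egr3 were Gdf15, Cfap126 and Ehd2. Likeness was the distance between log2(fold + 1) values over the 3 libraries, with 0 for no peak, and it was taken for the genes marked in both MPP libraries. The distance was 0.01, 0.02 and 0.02 for the Foxo1 group and 0.01 for each of the Egr3 group, where the median gene stood at 4.19 and 3.98. With 3 values per gene such matches are a description of peak height only.

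Genes of the same pathways, listed by role, were also counted by peaks at their ends. Among 63 of them, HSC marked 10 (15.9%, 95% exact binomial interval 7.88 to 27.3), MPP rep 1 marked 38 (60.3%, 47.2 to 72.4) and MPP rep 2 marked 45 (71.4%, 58.7 to 82.1). The shares of all protein-coding genes were 8.18%, 41.2% and 35.9%, as above, and apply to each list below. The lists were chosen with earlier results of these data known, and the intervals cover counting error only. Whether the lists differ from genes at large was not tested. Both MPP libraries marked 31 of the 63, all 3 libraries marked 4, and 11 were marked in none. Of all protein-coding genes, 28.9%, 5.8% and 51.5% were so marked.

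Of 22 genes upstream or downstream of FOXO, 3 were marked in HSC, 16 in MPP rep 1 and 16 in MPP rep 2, with 15 in both MPP libraries. All protein-coding genes stood at 8.18, 41.2, 35.9 and 28.9%. Sesn3, a stress-induced FOXO target, was marked in all 3, although the rep 2 peak lay nearer the gene and overlapped neither of the others, with pileups of 10 (4.80 to 18.4) in HSC, 17 (9.90 to 27.2) in MPP rep 1 and 16 (9.15 to 26.0) in MPP rep 2. Xpo1, the exportin that carries FOXO proteins out of the nucleus, had an HSC peak of 16 fragments (9.15 to 26.0) and a fold of 7.54, in the top 9.27% of the list, and an MPP rep 2 peak with a fold of 5.37. Akt2, a kinase of the family that inactivates FOXO proteins, was marked in HSC and MPP rep 1, by peaks that do not overlap. Sod2, the mitochondrial superoxide dismutase, was marked in MPP alone, with folds of 7.18 in rep 1 and 7.31 in rep 2.

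None of 17 EGR partner and immediate-early genes was marked in HSC (0%, exact interval up to 19.5%), while 11 were in MPP rep 1 and 13 in MPP rep 2. Ier5 had folds of 7.51 and 9.89 and pileups of 35 (24.4 to 48.7) and 26 (17.0 to 38.1) in MPP reps 1 and 2. Ier2, Ier3 and Dusp1, an early phosphatase that turns off MAP kinases, were also marked in both MPP libraries. The interval of the HSC share includes that of all genes. So does that of MPP rep 1 (38.3 to 85.8%, against 41.2%), while that of MPP rep 2 lies above it (50.1 to 93.2%, against 35.9%). Whether this hand-chosen list differs from genes at large was not tested.

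Of the Krüppel-like genes, 9 others were listed, which is not the whole family, and 4 of these showed the same library pattern as Egr1. Of the 9, 4 were marked in HSC, 4 in MPP rep 1 and 8 in MPP rep 2, and the 4 of HSC, Klf9, Klf10, Klf11 and Klf13, were all marked in rep 2 and not in rep 1. That pattern was present at 1.75% of protein-coding genes. It was taken from these same calls, and the list was chosen with earlier results known, so this comparison cannot show a trait of Krüppel-like genes. At Egr1 the pattern also depends on the window, since a window of 2 kb takes in the rep 1 peak. The HSC pileups were 11 (5.49 to 19.7) at Klf9, 12 (6.20 to 21.0) at Klf10 and at Klf13, and 9 (4.12 to 17.1) at Klf11. In MPP rep 2 they were 15 (8.40 to 24.7) at Klf9, 22 (13.8 to 33.3) at Klf10, 19 (11.4 to 29.7) at Klf13 and 18 (10.7 to 28.4) at Klf11. At Klf11 the peaks of the 2 libraries lay on either side of the gene end and did not overlap.

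Of 8 partners of TXNIP and alpha-arrestins, 3 were marked in HSC, 4 in MPP rep 1 and 5 in MPP rep 2. All 3 libraries marked Arrdc2 and Arrdc4, which encode relatives of TXNIP, and Txn1, which encodes the thioredoxin that TXNIP inhibits. Arrdc2 had a pileup of 24 (15.4 to 35.7) and a fold of 10.2 in HSC, in the top 3.58% of the list, and folds of 3.35 and 5.91 in MPP reps 1 and 2. For Arrdc4 the HSC fold was 7.40 and the MPP folds were 3.62 and 9.52. For Txn1 the HSC fold was 6.83 and the MPP folds were 4.13 and 7.77. Txnip itself had no gene-end peak in any library. Of 7 BTG/TOB and deadenylase genes, none was marked in HSC (exact interval up to 41.0%) and 3 in each MPP library. Cnot8, a catalytic deadenylase subunit, was the 1 marked in both, with folds of 4.33 and 4.47.

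**Figure D4:**
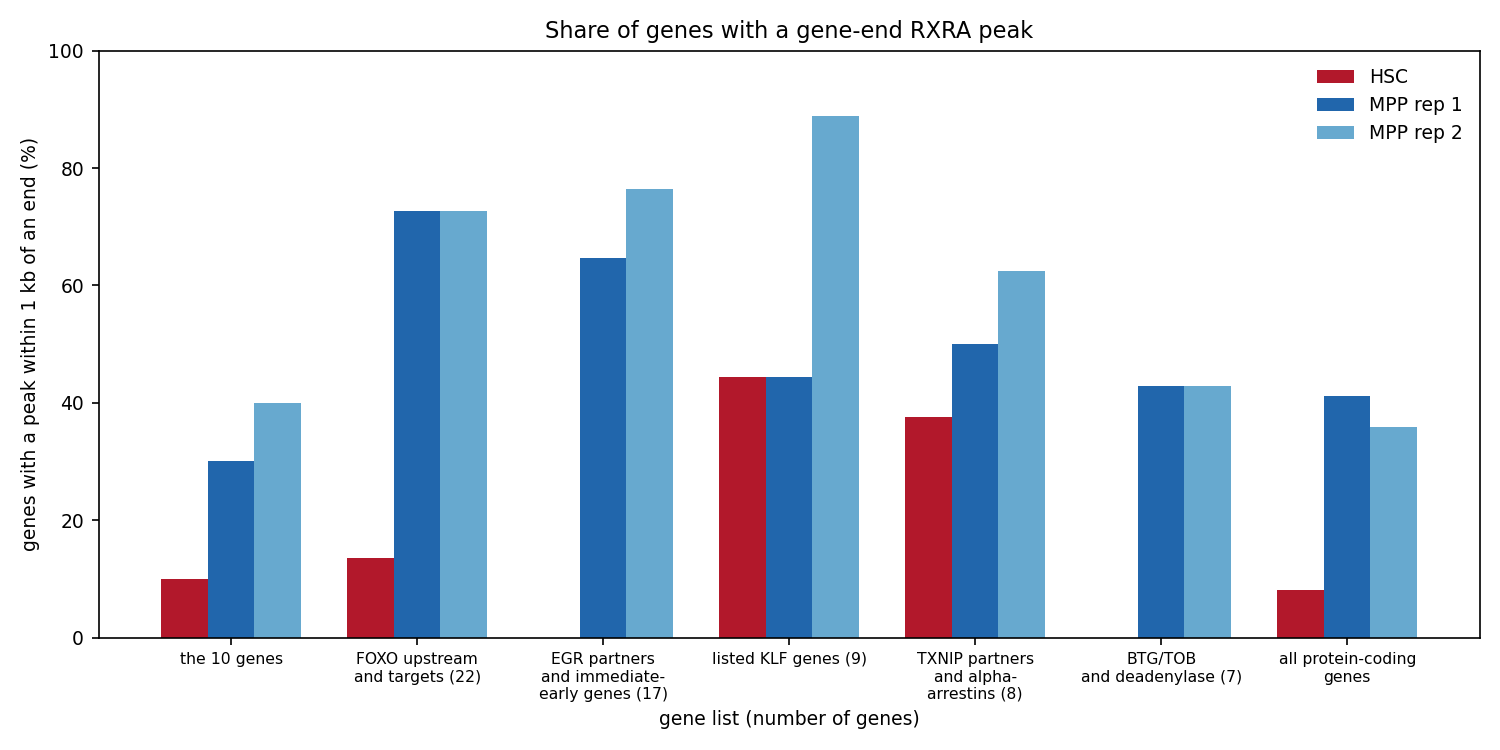
Percent of genes with an RXRA peak within 1 kb of either gene end in HSC, MPP rep 1 and MPP rep 2, for the 10 genes, for 5 lists of genes of the same pathways with the number of genes in brackets, and for all protein-coding genes. Each bar is 1 library. The 10 genes stand at 10, 30 and 40%, and all protein-coding genes at 8.18, 41.2 and 35.9%.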

How the data were processed

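RXRA CUT&RUN was measured in 1 HSC and 2 MPP libraries. Per the submitters' processing notes, the authors called peaks with MACS2 2.1.4 on the mm10 build, after alignment by Bowtie2 2.3.4.1 and trimming by cutadapt 1.9.1 and Trim Galore 0.4.2. The sources used here do not give the settings, the handling of duplicates or any control library. Each library has its own deposited peak list in the narrowPeak layout, without a header. The authors' fold enrichment, a ratio, sets the summit pileup against its local background. The deposited −log10 p entered the pileup calculation and the deposited −log10 q the stricter lists. The deposited score equals 10 times −log10 q as a whole number and was not used.

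Pileups were solved from fold, taken as pileup plus 1 over background plus 1, and the Poisson p. A whole number met the deposited −log10 p to within 0.001 for 99.98% of peaks in HSC, 100.0% in MPP rep 1 and 99.99% in MPP rep 2. Depth is known only through the lowest background in each list.

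A peak was at a gene end if it overlapped 1 kb either side of one, else internal if its summit lay in the gene, else distal. Overlap needed 1 bp and was checked with bedtools 2.31.1. Intervals are exact (Clopper-Pearson, Poisson; scipy 1.17.1). Strand came from the promoter table and is missing for Foxo4, Egr1 and Egr3. Exons were not used here. Pileup recovery, gene-end calls and overlaps were tested on simulated data. The motif search was not. Wider-list genes were named if marked in all libraries or among the first 4 of a list by libraries marked, then HSC fold, then MPP rep 1 fold. Of the neighbours that a member's peak lay at or in, some were named and others were not. For members marked in both MPP libraries, the 3 genes nearest in gene-end fold were named. The members and lists were chosen with earlier results of these data known.

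Alternatives were other windows, distances, q limits, list lengths and overlap rules, and leaving out each MPP library.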

Additional observations from a re-analysis of the deposited data

How the results depend on the processing

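Of 63 alternative values, 44 stayed within 1.5 times the reported count and 19 did not. With a gene-end window of 5 kb, members marked were 2 (HSC), 5 (MPP rep 1) and 7 (MPP rep 2), against 11.4, 53.9 and 46.0% of all protein-coding genes. Wider-list genes marked in HSC at that window were 16 of 63, against the same 11.4%. With q at or below 1e-05, HSC kept 0 members marked at a gene end, against 1.99% of all genes. It kept 1 with a peak within 50 kb, against 11.1%, and 1 peak in all. At that limit MPP rep 2 had 22 peaks near members out of 11816 in its list, against 43 out of 19570 in the full list. Of the 63 wider-list genes, 4 were then marked in HSC, 20 in MPP rep 1 and 32 in MPP rep 2. The shares of all genes were 1.99, 27.3 and 25.9%. With each list held to 4047 peaks, members marked at a gene end were 1 in MPP rep 1 and 0 in MPP rep 2, against 8.83 and 10.1% of all genes. Those with a peak within 50 kb were 5 and 5, against 36.5 and 36.5%, and their peaks numbered 5 and 7. Of the 6 HSC peaks near members, 2 then overlapped an MPP peak. The share of all HSC peaks that did so at that length was not counted. Without rep 1 or rep 2 of MPP, the HSC peaks that overlap an MPP peak numbered 3 to 5, and members marked in every remaining library 0 to 1, the 1 being Egr1 without rep 1. The cause of these shifts was not tested, beyond the fewer peaks that a stricter list holds. No paired analysis was possible because HSC has 1 library and no test was run. The lowest pileup called was 8.28 times the lowest background of the list in HSC, against 3.48 and 5.55 in MPP, and the part of depth in the HSC counts was not tested.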

Other observations

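Of the 48 sites beyond the 10 genes, 13 lay at an end of another gene, 11 inside another gene and 24 at no other annotated gene. Distal sites of other genes were not counted in this way, so the split is a description only. Judged by the lower of its ranks in the MPP lists, the leading site of the 10 genes was at an end of Bin3, an adaptor protein gene 17.4 kb above Egr3. It had a fold of 7.69 and a pileup of 34 (23.5 to 47.5) in MPP rep 1, and a fold of 9.07 and a pileup of 23 (14.6 to 34.5) in MPP rep 2. Polr3gl had end or internal sites in both MPP libraries. The peak at its start had folds of 3.55 and 6.81, and the one inside the gene folds of 6.00 and 4.37. Afg1l, beyond Foxo3, had an end peak in MPP rep 1 alone, with a fold of 3.23. No HSC peak overlapped the named sites at Bin3's end, Polr3gl or Afg1l.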
